A study of Mus musculus with 15 samples.

Results

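The lysosome genes described here are 38 mouse genes of the 25700 in the count table. They were listed by name and matched to Ensembl identifiers through GENCODE M21 (GRCm38). By role they comprise 8 cathepsins, 8 hydrolases of sugars and lipids, 4 proteins of lipid transfer, lipid activation or ion release, 2 membrane glycoproteins, 12 genes of the proton pump (V-ATPase) and the 4 MiT/TFE transcription factors. The study put bone marrow derived macrophages of mice aged 8 to 10 weeks, cultured with M-CSF (10 ng/ml) over 7 days, through treatments that yield M1, M2 or erythrophagocyte-like cells, and sequenced the RNA of 15 libraries. The 5 groups of 3 libraries were those given 400 µM of heme-albumin, those given 200 µM of it, IL-4 (10 ng/ml), IFN-γ (10 ng/ml) and untreated controls, and all 5 shared the M-CSF culture. Heme-albumin was hemin carried on human serum albumin, and no library of albumin without heme is among the 15, so that heme and albumin cannot be told apart. The treatment tags of the higher dose read 400, 401 and 402 in replicates 1, 2 and 3, while the titles give 400 for each. The sources used here give neither strain, sex nor hours of treatment, nor whether the 3 replicates came from separate animals, so that p-values measure the spread between these libraries, which may be technical.

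Lysosomes are the acid compartment in which macrophages degrade what they take up, including aged red cells. Their hydrolases work at low pH, which the V-ATPase maintains: its V1 sector hydrolyses ATP and its V0 sector carries protons across the membrane. TFEB, TFE3, TFEC and MITF are basic helix-loop-helix proteins that bind E-boxes, and many lysosome genes carry such a box in an element called CLEAR. In well-fed cells mTORC1 phosphorylates TFEB and holds it in the cytoplasm, so that the level of its transcript does not give its activity.

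Library totals ran from 8427352 to 28587416 counts. Levels are given as CPM, counts scaled to a fixed library total after TMM factors, and each member had at least 106 counts in each library, a lowest value set by Tfeb. Heme-albumin 400 replicate 2 and IFN-γ replicate 3 stood furthest apart from the rest of their groups. In chi-square per degree of freedom over genes, the heme-albumin library differed from its fellows by 62.4 and 49.0, against 10.8 between those, and IFN-γ replicate 3 by 135 and 130.0, against 44.7. Heme-albumin 200 replicate 2 also stood apart, by 36.0 and 22.7, against 8.52. The inducible heme oxygenase Hmox1 (4.76 ± 0.29 at 400 µM, log2 fold change ± SE), the IL-4 gene Arg1 (11.37 ± 0.61) and the interferon gene Irf1 (4.76 ± 0.15) rose under their own treatments. All 9 macrophage markers were detected in each group, and their sums, led by Lyz2, were 42110.0 to 52190.0 CPM at 400 µM, 46970.0 to 55720.0 at 200 µM, 14550.0 to 20640.0 with IL-4 and 13160.0 to 26770.0 with IFN-γ, against 33270.0 to 38980.0 in controls. The 4 megakaryocyte and platelet markers, nearly all of it Pf4, summed to 361 to 680.2, 425 to 478, 83.6 to 112 and 13.4 to 35.0 CPM in those groups, against 130.2 to 246 in controls, and the 8 neutrophil markers to at most 55.3 CPM in any library. The part of such cells in the results was not tested. Exons of 10 members overlap those of another counted gene, so that their counts carry an uncertainty. Ctsd (with Gm49369) and Glb1 (Tmppe) overlap a gene on the same strand. Ctsa (Neurl2 and Pltp), Ctsb (Fdft1), Ctsz (Nelfcd), Hexa (Tmem202), Npc1 (Rmc1), Lamp1 (Grtp1), Atp6v1e1 (Slc25a18) and Atp6v1h (Rgs20) overlap one on the opposite strand, and whether reads were counted by strand is not stated.

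Promoters of 32 of the 38 members, 41 in all since some genes have several starts, were found among RefSeq's promoters for GRCm38.p6. Each was read from 250 bases before the start to 10 after it. Those shown belong to the members that passed the test in opposite directions with IL-4 and with IFN-γ (Atp6v0a1, Atp6v0d1, Ctsl and Gusb higher with IL-4, Ctsc higher with IFN-γ), a choice made after the values were seen, and to Lamp1, whose promoter held the most E-boxes. Capitals mark matches, on either strand, to the E-box CACGTG, to TCACGTGA (the core of CLEAR, which holds an E-box within it), to the antioxidant response core TGACNNNGC, to the interferon-γ-activated site TTCNNNGAA or to the STAT6 site (TTC and GAA around 4 bases of any kind).
Atp6v0a1, chr11:101010148-101010407, plus strand: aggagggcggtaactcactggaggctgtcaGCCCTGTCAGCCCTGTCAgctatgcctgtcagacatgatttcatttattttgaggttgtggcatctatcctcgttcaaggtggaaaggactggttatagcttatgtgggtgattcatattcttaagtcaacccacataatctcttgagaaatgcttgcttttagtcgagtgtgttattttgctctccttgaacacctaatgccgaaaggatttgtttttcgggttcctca
Atp6v0d1, chr8:105566055-105566314, minus strand: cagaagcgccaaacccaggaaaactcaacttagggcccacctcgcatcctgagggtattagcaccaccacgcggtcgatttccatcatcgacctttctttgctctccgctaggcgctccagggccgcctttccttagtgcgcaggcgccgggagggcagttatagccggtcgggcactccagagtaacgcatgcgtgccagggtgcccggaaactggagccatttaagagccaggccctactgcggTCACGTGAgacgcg
Ctsl, chr13:64370511-64370770, minus strand: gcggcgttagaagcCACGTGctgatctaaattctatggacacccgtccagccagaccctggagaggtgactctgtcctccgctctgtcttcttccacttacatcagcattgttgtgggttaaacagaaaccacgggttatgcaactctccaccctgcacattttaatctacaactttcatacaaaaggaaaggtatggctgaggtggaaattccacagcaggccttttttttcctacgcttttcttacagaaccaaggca
Gusb, chr5:130003040-130003299, minus strand: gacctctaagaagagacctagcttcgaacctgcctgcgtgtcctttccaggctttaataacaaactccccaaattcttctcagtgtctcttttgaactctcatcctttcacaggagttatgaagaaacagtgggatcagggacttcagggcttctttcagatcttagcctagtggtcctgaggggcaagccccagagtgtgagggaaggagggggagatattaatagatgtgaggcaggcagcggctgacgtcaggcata
Ctsc, chr7:88277835-88278094, plus strand: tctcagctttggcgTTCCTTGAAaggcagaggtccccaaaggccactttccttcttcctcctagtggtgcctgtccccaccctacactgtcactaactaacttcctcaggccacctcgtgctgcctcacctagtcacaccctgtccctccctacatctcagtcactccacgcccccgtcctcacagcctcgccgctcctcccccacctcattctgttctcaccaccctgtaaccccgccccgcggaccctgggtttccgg
Lamp1, chr8:13158911-13159170, plus strand: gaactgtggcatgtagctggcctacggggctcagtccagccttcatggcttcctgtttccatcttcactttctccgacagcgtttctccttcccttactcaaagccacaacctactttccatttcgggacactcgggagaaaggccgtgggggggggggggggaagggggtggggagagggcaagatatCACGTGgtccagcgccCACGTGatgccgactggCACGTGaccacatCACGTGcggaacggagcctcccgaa

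In the Lamp1 promoter the 4 capital runs are E-boxes, at 61, 45, 28 and 15 bases before the start. Atp6v0d1 holds 1 TCACGTGA, which spans its start site, and Ctsl 1 E-box at 236 bases before the start. Ctsc holds 1 TTCNNNGAA, also 236 bases before the start. Atp6v0a1 holds a pair of antioxidant response cores on the opposite strand and Gusb none of the 5 motifs. For Atp6v0a1 and Atp6v0d1 the first 50 transcribed bases after RefSeq's start were not found whole in GENCODE M21 transcripts. The windows of Ctsl and Atp6v0a1 lie inside the GENCODE gene spans (64359337 to 64370890 and 101009452 to 101063719). Other annotated starts of these 2 genes thus lie upstream of the bases shown. Among the members' promoters CACGTG was found in 12 of 41 (29.3%), against 6.34% of all 32851 promoters in the table, and TCACGTGA in 7 of 41 (17.1%), against 0.874% of all 32851. The other shares were 8 of 41 (19.5%) for TGACNNNGC, against 10.7% of all 32851, 1 of 41 (2.44%) for TTCNNNGAA, against 7.33% of all 32851, and 2 of 41 (4.88%) for the STAT6 site, against 6.09% of all 32851. Atp6v1a, Atp6v0e, Ctsa, Ctsd, Gla and Mcoln1 were the other members with TCACGTGA. A match is a run of letters and does not show that a factor binds.

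The lysosome genes took a larger share of the raw counts with IL-4 than in controls and a smaller share of them with heme-albumin. With IFN-γ some members were far higher and others far lower. The 38 genes took 3.98 to 4.85% of a library's counts at 400 µM heme-albumin, 3.98 to 4.37% at 200 µM, 8.06 to 8.65% with IL-4 and 5.66 to 7.21% with IFN-γ, against 5.17 to 5.78% in controls. In these raw shares the ranges of both heme-albumin doses lay below the control range and that of IL-4 lay above it, while IFN-γ overlapped it. The TMM factors, not applied to these shares, ran from 1.084 to 1.122 in controls. They were 0.9197 to 1.003 at 400 µM, 0.9317 to 0.9755 at 200 µM, 1.007 to 1.027 with IL-4 and 0.8859 to 1.022 with IFN-γ. In CPM, after these factors, the ranges of both heme-albumin doses overlap the control range, and those of IL-4 and IFN-γ lie above it. In bulk RNA a change in the cells present and a change in RNA per cell cannot be told apart. All 38 members passed the filter on low counts and were tested among 11883 genes with edgeR's quasi-likelihood test at a Benjamini-Hochberg adjusted p under 0.05; a value written as a ± b below is a log2 fold change with its SE unless marked SD.

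IL-4 gave the most rises. 19 members rose and 1 fell, where 14.9% of all tested genes rose and 12.0% fell. With IFN-γ 8 rose and 6 fell (24.1% and 19.5% of all genes). At 400 µM heme-albumin 7 rose and 8 fell (14.7% and 10.8%), and at 200 µM 7 rose and 6 fell (14.0% and 9.48%). The median log2 fold change over the 38 members was -0.03 at 400 µM, -0.12 at 200 µM, 0.43 with IL-4 and 0.02 with IFN-γ. Over all tested genes it was 0.00847, 0.0235, -0.000353 and 0.0507 in the same comparisons. Groups lay wholly above the controls in 11 members at 400 µM, 12 at 200 µM, 29 with IL-4 and 12 with IFN-γ. Of all tested genes this held for 23%, 27.3%, 28.3% and 27.3%. Groups lay wholly below the controls in 13, 13, 1 and 7 members, and in 22.4%, 24.5%, 26.7% and 24.5% of all tested genes. Groups that do not overlap, as given for single genes below, are thus common. These 4 comparisons share the control libraries. The members called in none of the 4 were Neu1, Mcoln1, Lamp2, Atp6v0e, Atp6v1c1, Atp6v1d, Atp6v1e1 and Tfe3, 8 in all, and Ctsc, Ctsl and Gusb were called in each.

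Without both libraries that stood furthest apart 10 members rose and 11 fell at 400 µM, 11 rose and 10 fell at 200 µM, 26 rose and 1 fell with IL-4 and 8 rose and 10 fell with IFN-γ. Single libraries moved some counts of members by more than 1.5 times. At 400 µM, 5 members fell without control 3, 400 µM 1 or 400 µM 3. Of all genes 904, 1233 and 996 then fell, against 1279. At 200 µM, 3 members rose without control 1 or 200 µM 2 and 4 without control 2, and 3 fell without control 3 or 200 µM 2. Of all genes 1003, 1029 and 1170 then rose, against 1658, and 851 and 650 fell, against 1127. With IL-4, 12 members rose without control 1 or IL-4 3, and with IFN-γ, 14 rose without IFN-γ 1. Of all genes 1179 and 1235 then rose with IL-4, against 1766, and 3074 with IFN-γ, against 2866. Scaling by upper-quartile factors moved the median of all genes by -0.110 in the comparison of IFN-γ with control. There 2232 genes were then higher and 3036 lower, against 2866 and 2323, and 8 members were higher and 9 lower.

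**Figure D1:**
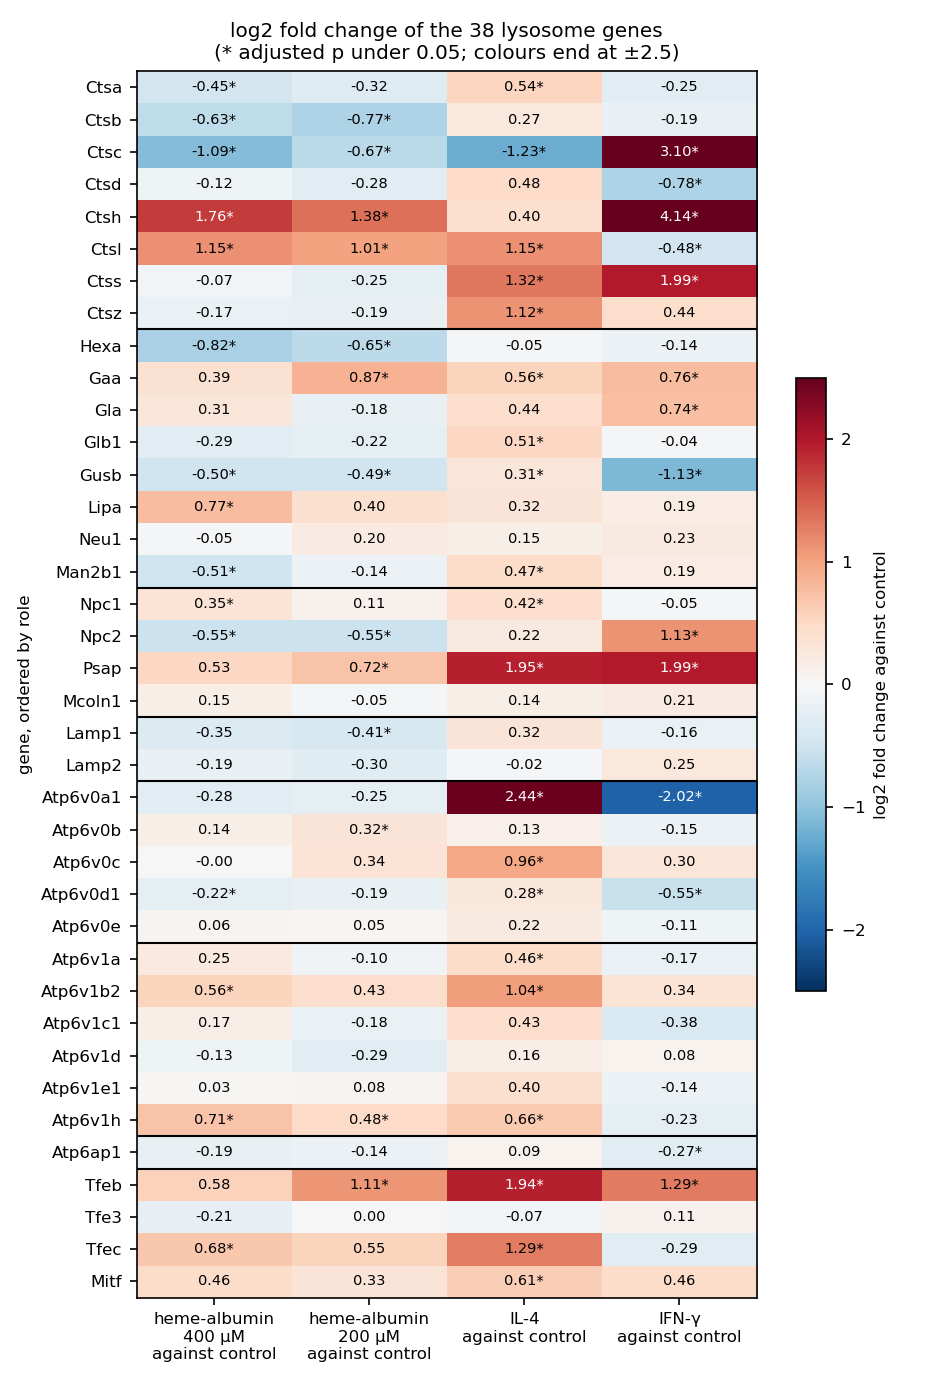
Fitted log2 fold changes of the 38 lysosome genes (rows, ordered by role) in each treatment against control (columns), with an asterisk where the adjusted p was under 0.05. IL-4 has 19 marked rises and 1 marked fall, and the most intense cells are those of Ctsh (4.14) and Ctsc (3.10) with IFN-γ and Atp6v0a1 with either cytokine (2.44 with IL-4 and -2.02 with IFN-γ).

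Cathepsins, the main lysosomal proteases, moved in both directions under each treatment. Of 8, 2 rose and 3 fell at 400 µM heme-albumin, 2 rose and 2 fell at 200 µM, 4 rose and 1 fell with IL-4 and 3 rose and 2 fell with IFN-γ. Of all tested genes 14.7% rose and 10.8% fell at 400 µM, and 14.0% and 9.48% at 200 µM. With IL-4 these shares were 14.9% and 12.0%, and with IFN-γ 24.1% and 19.5%. Ctsh, an aminopeptidase (ENSMUSG00000032359, chromosome 9, 90054152 to 90076089 in GRCm38), stood at 175, 225 and 189.7 CPM at 400 µM heme-albumin, 138, 175 and 139.8 at 200 µM, 83.3, 69.4 and 78.0 under IL-4 and 746, 944 and 1388 under IFN-γ, against 59.1, 56.8 and 58.6 in controls. The 5 groups did not overlap in Ctsh except the 2 heme-albumin doses. It was 17.6-fold higher with IFN-γ (4.14 ± 0.21, adjusted p = 8.52e-09) and 3.38-fold and 2.60-fold higher at 400 and 200 µM heme-albumin (1.76 ± 0.19 and 1.38 ± 0.19), while with IL-4 the difference was 0.40 ± 0.19 (adjusted p = 0.135). Ctsc, a dipeptidyl peptidase that activates serine proteases of granules (ENSMUSG00000030560, chromosome 7, 88278085 to 88310888), stood at 222, 149 and 238 CPM at 400 µM heme-albumin, 313, 194 and 312 at 200 µM, 188, 182 and 183 under IL-4 and 4004, 3559 and 3576 under IFN-γ, against 463, 397 and 439.6 in controls. All 3 IFN-γ libraries lay above each other library, and all heme-albumin and IL-4 libraries lay below the controls. Ctsc rose with IFN-γ (3.10 ± 0.20, adjusted p = 9.18e-08) and fell at 400 µM (-1.09 ± 0.19), at 200 µM (-0.67 ± 0.19) and with IL-4 (-1.23 ± 0.19), where it was the 1 member that fell.

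Ctsl, an endopeptidase (ENSMUSG00000021477, chromosome 13, 64359337 to 64370890), had 3346, 3703 and 3595 CPM at 400 µM heme-albumin, 3290.0, 3167 and 3187 at 200 µM, 3558, 2765 and 4331 under IL-4 and 1173, 1204 and 1063 under IFN-γ, against 1637, 1597 and 1564 in controls. Its heme-albumin and IL-4 libraries were all above the controls and its IFN-γ libraries all below. It rose at 400 µM (1.15 ± 0.14), at 200 µM (1.01 ± 0.14) and with IL-4 (1.15 ± 0.14) and fell with IFN-γ (-0.48 ± 0.14, adjusted p = 0.0159). Ctss, which trims the invariant chain of MHC class II molecules, had 985, 2216 and 1218 CPM at 400 µM heme-albumin, 1054, 1664 and 1180.3 at 200 µM, 3580.1, 4067 and 3904 under IL-4 and 3407, 5226 and 9689 under IFN-γ, against 1168, 2181 and 1277 in controls. Replicate 2 was the highest of its group in all groups but IFN-γ, and the IFN-γ libraries spread widely. Ctss rose with IFN-γ (1.99 ± 0.39) and IL-4 (1.32 ± 0.38) and differed by -0.07 ± 0.38 at 400 µM and -0.25 ± 0.38 at 200 µM, which did not pass. Ctsb, an abundant endopeptidase and exopeptidase (ENSMUSG00000021939, chromosome 14, 63122462 to 63145923), had 8398, 11528 and 10516 CPM at 400 µM heme-albumin, 8911, 8845 and 9849.7 at 200 µM, 17782, 19118 and 19888 under IL-4 and 12114, 15027 and 14167 under IFN-γ, against 14895, 15754 and 16437 in controls. Each heme-albumin library was below each control in Ctsb. It fell at 400 µM (-0.63 ± 0.16) and 200 µM (-0.77 ± 0.16), and its differences of 0.27 ± 0.16 with IL-4 and -0.19 ± 0.16 with IFN-γ did not pass.

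Ctsd, the main aspartic protease of lysosomes (ENSMUSG00000007891, chromosome 7, 142375911 to 142388038), had 7131, 11202 and 9405 CPM at 400 µM heme-albumin, 7236, 8760.4 and 8812 at 200 µM, 13131, 12682 and 16265 under IL-4 and 4750.4, 5336 and 7482 under IFN-γ, against 9004, 9469 and 11674 in controls. The IFN-γ libraries all lay below the controls, and Ctsd fell there (-0.78 ± 0.21, adjusted p = 0.0107), while -0.12 ± 0.21 at 400 µM, -0.28 ± 0.21 at 200 µM and 0.48 ± 0.21 with IL-4 did not pass. The carboxypeptidases Ctsz (1.12 ± 0.19) and Ctsa (0.54 ± 0.13), which also shields β-galactosidase and sialidase from degradation, rose with IL-4. Ctsa fell at 400 µM (-0.45 ± 0.13). Ctsz differed by -0.17 ± 0.18 at 400 µM, -0.19 ± 0.18 at 200 µM and 0.44 ± 0.18 with IFN-γ, and Ctsa by -0.32 ± 0.13 at 200 µM and -0.25 ± 0.13 with IFN-γ, none of which passed. Summed over the 8 genes, cathepsin RNA made up 21626, 30622 and 26608 CPM at 400 µM, 22397, 24468 and 24938 CPM at 200 µM, 41487, 42189 and 48026 CPM with IL-4 and 27777, 33108 and 39957 CPM with IFN-γ, against 28931, 31289 and 33365 CPM in controls. IL-4 sums lay above all controls, and the 200 µM sums below them. Dendritic cell markers (6 of 6 detected in some library) summed to 27.0 to 59.8 CPM with IFN-γ and to at most 2.57 CPM with heme-albumin or IL-4, against 0.384 to 0.967 CPM in controls. Clec9a made up most of it, and Flt3, Siglech and Ccr7 had 5, 2 and 1 counts in all 3 IFN-γ libraries together. The part of such cells in the IFN-γ values was not tested. In the alternatives, with adjusted p in brackets, these calls changed. Ctsa lost its call at 400 µM without control replicate 3 or 400 µM replicate 1 or 3 (0.0555 to 0.0806). Ctsa gained a call with IFN-γ without IFN-γ replicate 3 (0.0302). Ctsc lost its call at 200 µM without control replicate 1 or 3 or 200 µM replicate 2 (0.0512 to 0.0911). Ctsd gained a call with IL-4 with the replicate block (0.0435). Ctss lost its call with IL-4 without control replicate 1 or 3 or IL-4 replicate 2 or 3 (0.0536 to 0.0934). Ctsz gained a call with IFN-γ without IFN-γ replicate 1 or 2 (0.0214 to 0.0337).

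**Figure D2:**
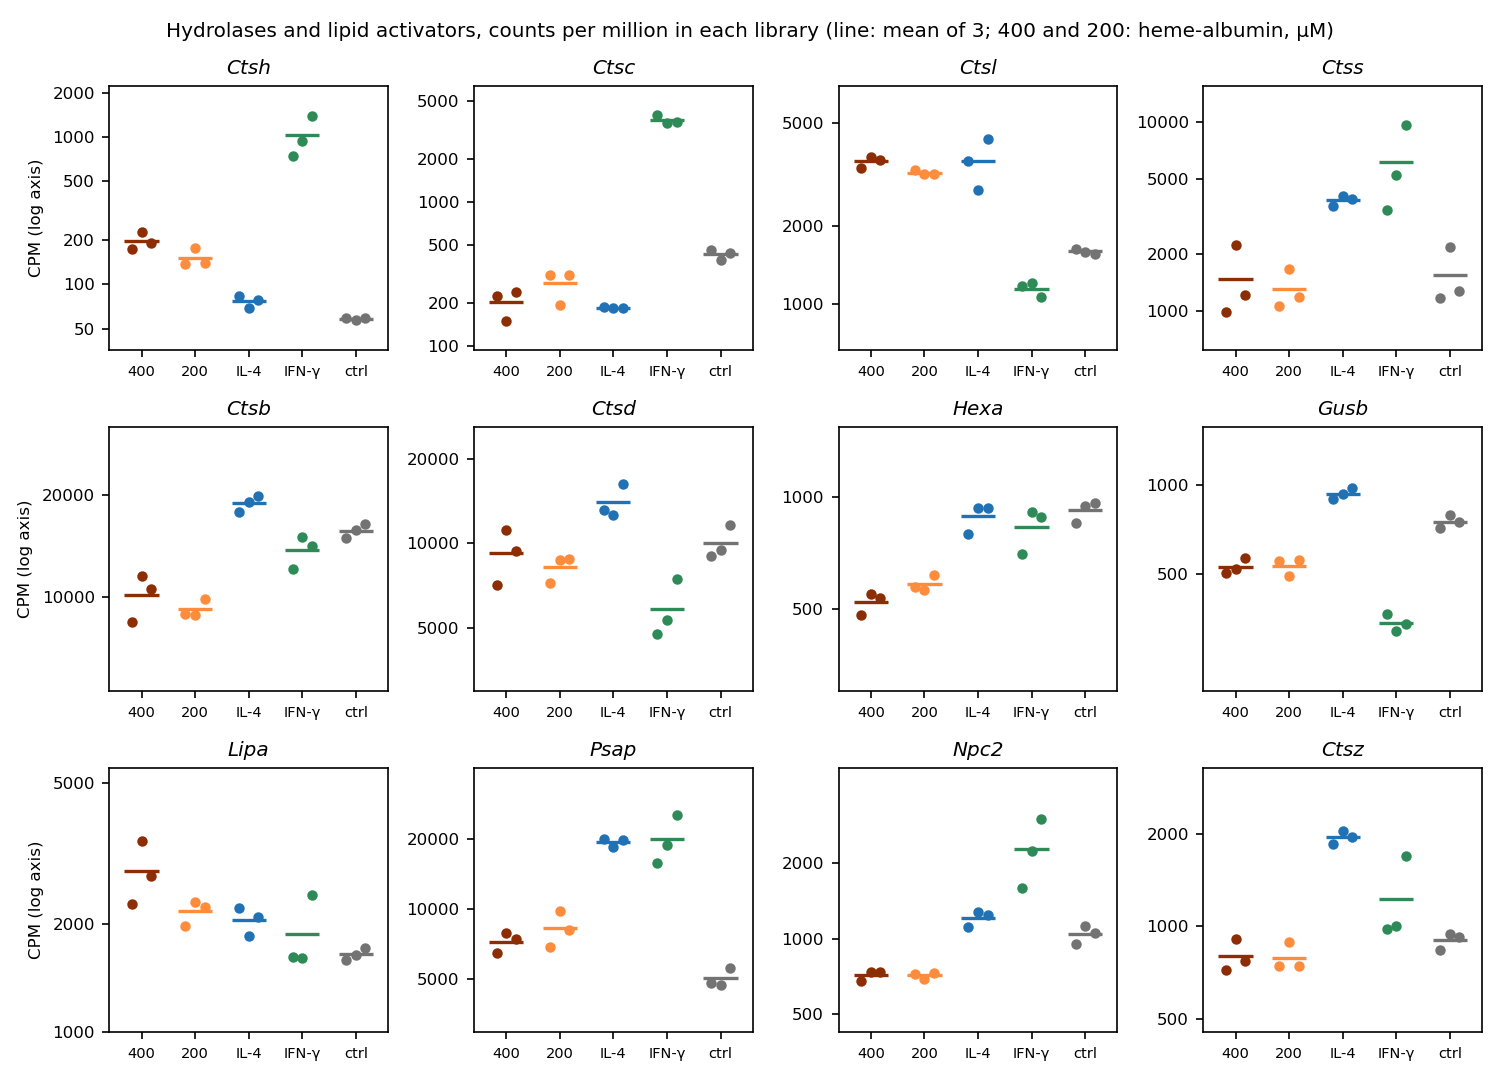
CPM on log axes in each of the 15 libraries for 12 hydrolases and lipid activators, with the 5 groups from 400 µM heme-albumin on the left to control (ctrl) on the right; points are libraries and lines are means of 3. Ctsh and Ctsc are highest with IFN-γ, Ctsl, Ctsd and Gusb have their lowest means there, and Ctsb and Hexa are lower in each heme-albumin library than in each control.

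The glycosidases and lipases that degrade glycans, glycogen and lipids moved less than the extremes of the cathepsins, at most by the -1.13 of Gusb with IFN-γ. Of 8, 1 rose and 3 fell at 400 µM, 1 rose and 2 fell at 200 µM, 4 rose and 0 fell with IL-4 and 2 rose and 1 fell with IFN-γ. Of all tested genes 14.7% rose and 10.8% fell at 400 µM, and 14.0% and 9.48% at 200 µM. With IL-4 these shares were 14.9% and 12.0%, and with IFN-γ 24.1% and 19.5%. Hexa, the α subunit of β-hexosaminidase (ENSMUSG00000025232, chromosome 9, 59539540 to 59565109), had 482, 551 and 537 CPM at 400 µM heme-albumin, 574, 563 and 619 at 200 µM, 799, 935 and 934 under IL-4 and 704, 912 and 882 under IFN-γ, against 852, 947 and 964 in controls. Each heme-albumin library was below each of the other 9. Hexa fell at 400 µM (-0.82 ± 0.12, adjusted p = 0.000259) and 200 µM (-0.65 ± 0.12, adjusted p = 0.00146), against -0.05 ± 0.12 with IL-4 and -0.14 ± 0.12 with IFN-γ, which did not pass. Gusb, β-glucuronidase (ENSMUSG00000025534, chromosome 5, 129989011 to 130003049), had 503, 522 and 567 CPM at 400 µM heme-albumin, 552, 495 and 558 at 200 µM, 897, 927 and 975 under IL-4 and 367, 324 and 339.7 under IFN-γ, against 714, 791 and 750.1 in controls. The IL-4 libraries lay above the controls, and the heme-albumin and IFN-γ libraries below them, with no overlap. It fell with IFN-γ (-1.13 ± 0.10), at 400 µM (-0.50 ± 0.09) and at 200 µM (-0.49 ± 0.09) and rose with IL-4 (0.31 ± 0.09).

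Lipa, the acid lipase that releases cholesterol from its esters (ENSMUSG00000024781, chromosome 19, 34492318 to 34527474), had 2287, 3436 and 2740.1 CPM at 400 µM heme-albumin, 1975, 2313 and 2243 at 200 µM, 2222, 1859 and 2100.2 under IL-4 and 1616, 1608 and 2423 under IFN-γ, against 1592, 1645 and 1715 in controls. The heme-albumin and IL-4 libraries all lay above the controls, and IFN-γ replicate 3 stood above the other 2 of its group. Lipa rose at 400 µM (0.77 ± 0.18, adjusted p = 0.00652), against 0.40 ± 0.18 at 200 µM, 0.32 ± 0.18 with IL-4 and 0.19 ± 0.18 with IFN-γ, which did not pass. Acid α-glucosidase, Gaa, which degrades glycogen, rose at 200 µM (0.87 ± 0.16), with IL-4 (0.56 ± 0.16) and with IFN-γ (0.76 ± 0.16), with 0.39 ± 0.16 at 400 µM (adjusted p = 0.0907). α-Galactosidase, Gla, rose with IFN-γ (0.74 ± 0.22). β-Galactosidase, Glb1, rose with IL-4 (0.51 ± 0.12). α-Mannosidase, Man2b1, fell at 400 µM (-0.51 ± 0.12) and rose with IL-4 (0.47 ± 0.11). The sialidase Neu1 passed in none of the 4 comparisons, with values of -0.05 ± 0.13, 0.20 ± 0.13, 0.15 ± 0.12 and 0.23 ± 0.12 at 400 µM, at 200 µM, with IL-4 and with IFN-γ. Gaa lost its call with IL-4 without control replicate 1 or 2 or IL-4 replicate 2 or 3 (0.0556 to 0.088). Gla lost its call with IFN-γ without control replicate 1 or 3 or IFN-γ replicate 3 (0.05 to 0.0622). Gusb lost its call with IL-4 without any single control library or IL-4 replicate 2 or 3 (0.0521 to 0.121). Neu1 gained a call with IFN-γ without IFN-γ replicate 1 (0.0146). Man2b1 lost its call with IL-4 without control replicate 1 (0.0522).

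Psap encodes prosaposin, the precursor of the saposins that present sphingolipids to hydrolases, and it was among the largest rises with either cytokine (ENSMUSG00000004207, chromosome 10, 60277627 to 60302597). It had 6444, 7858 and 7465 CPM at 400 µM heme-albumin, 6877, 9796 and 8142 at 200 µM, 19947, 18536 and 19774 under IL-4 and 15745, 18892 and 25269.6 under IFN-γ, against 4797, 4719 and 5594 in controls. Both cytokine groups lay above all other libraries, and both heme-albumin groups lay above the controls. Psap was 3.86-fold higher with IL-4 (1.95 ± 0.20, adjusted p = 1.04e-05), 3.96-fold higher with IFN-γ (1.99 ± 0.20, adjusted p = 4.89e-06) and 1.64-fold higher at 200 µM (0.72 ± 0.19). At 400 µM its difference of 0.53 ± 0.19 did not pass (adjusted p = 0.0605). Npc1 and Npc2 pass cholesterol out of the lysosome. Npc2 rose with IFN-γ (1.13 ± 0.18) and fell at 400 µM (-0.55 ± 0.18) and 200 µM (-0.55 ± 0.18), with 0.22 ± 0.18 with IL-4. Npc1 rose with IL-4 (0.42 ± 0.12) and at 400 µM (0.35 ± 0.12), with 0.11 ± 0.12 at 200 µM and -0.05 ± 0.12 with IFN-γ. The calcium channel gene Mcoln1 passed in none (0.15 ± 0.18, -0.05 ± 0.18, 0.14 ± 0.18 and 0.21 ± 0.18 at 400 µM, at 200 µM, with IL-4 and with IFN-γ). Npc1 lost its call at 400 µM without any single control library or 400 µM replicate 1 or 2 or with DESeq2's size factors or with no filter or without both libraries that stood furthest apart or with only the 6 libraries compared (0.0518 to 0.18), and with IL-4 without control replicate 2 or 3 or IL-4 replicate 2 or 3 (0.054 to 0.0801). Npc2 lost its call at 400 µM without control replicate 2 or 3 or any single 400 µM library (0.0715 to 0.101), and at 200 µM without any single control library or any single 200 µM library (0.0519 to 0.119). Psap lost its call at 200 µM without control replicate 1 or 2 or 200 µM replicate 2 (0.0701 to 0.0869). Psap gained a call at 400 µM with the replicate block (0.0377). Mcoln1 gained a call with IFN-γ without IFN-γ replicate 1 (0.0491).

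The glycoproteins Lamp1 and Lamp2 coat the inner face of the lysosomal membrane. Lamp1 averaged 1929 ± 165 CPM at 400 µM, 1849 ± 92.2 at 200 µM, 3062 ± 273 with IL-4 and 2201 ± 285 with IFN-γ, against 2453 ± 113 in controls (SD, n = 3 each). It fell at 200 µM (-0.41 ± 0.13), and differences of -0.35 ± 0.13 at 400 µM, 0.32 ± 0.13 with IL-4 and -0.16 ± 0.13 with IFN-γ did not pass. Lamp2 passed in none, with -0.19 ± 0.12 at 400 µM, -0.30 ± 0.12 at 200 µM, -0.02 ± 0.12 with IL-4 and 0.25 ± 0.12 with IFN-γ. Lamp1 lost its call at 200 µM without control replicate 2 or 3 or any single 200 µM library or with no filter (0.0516 to 0.0991). Lamp1 gained a call at 400 µM with the replicate block (0.0248), and with IL-4 with the replicate block (0.0359).

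In the V-ATPase, the pump's a1 subunit showed the largest change of all members with IL-4 and, among falls, with IFN-γ. Atp6v0a1 (ENSMUSG00000019302, chromosome 11, 101009452 to 101063719), a membrane subunit that takes part in proton passage, had 247, 278 and 254 CPM at 400 µM heme-albumin, 269.8, 267 and 260.4 at 200 µM, 1681, 1764 and 1695 under IL-4 and 67.5, 99.5 and 65.5 under IFN-γ, against 312, 301 and 332 in controls. All IL-4 libraries lay above every other, and all IFN-γ libraries below. It was 5.44-fold higher with IL-4 (2.44 ± 0.14, adjusted p = 1.15e-07) and fell with IFN-γ (-2.02 ± 0.14, adjusted p = 1.51e-07), with -0.28 ± 0.14 at 400 µM and -0.25 ± 0.14 at 200 µM, which did not pass. The V0 subunit d1, Atp6v0d1, had 202, 214 and 217 CPM at 400 µM heme-albumin, 215, 216 and 217 at 200 µM, 300.4, 301 and 294 under IL-4 and 169, 157 and 176 under IFN-γ, against 247, 238 and 253 in controls. Each treated group was apart from the controls, IL-4 above them and the others below. Atp6v0d1 rose with IL-4 (0.28 ± 0.07), fell with IFN-γ (-0.55 ± 0.07) and fell slightly at 400 µM (-0.22 ± 0.07), with -0.19 ± 0.07 at 200 µM. Atp6v0c, which builds the proton-carrying ring, rose with IL-4 (0.96 ± 0.19), with -0.00 ± 0.19, 0.34 ± 0.19 and 0.30 ± 0.19 at 400 µM, at 200 µM and with IFN-γ. Atp6v0b, of the same ring, rose at 200 µM (0.32 ± 0.10), and Atp6v0e passed in none (0.06 ± 0.11, 0.05 ± 0.11, 0.22 ± 0.11 and -0.11 ± 0.11 at 400 µM, at 200 µM, with IL-4 and with IFN-γ). Atp6v0b lost its call at 200 µM without any single control library or any single 200 µM library or with DESeq2's size factors or with no filter (0.0522 to 0.189). Atp6v0c gained a call with IFN-γ without IFN-γ replicate 1 (0.0121). Atp6v0d1 lost its call at 400 µM without any single control library or any single 400 µM library or with upper-quartile factors or with no filter or with only the 6 libraries compared (0.0547 to 0.117), and with IL-4 without control replicate 1 or 2 or IL-4 replicate 3 (0.0505 to 0.0785).

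In the V1 sector, 3 of 6 rose with IL-4 (14.9% of all genes) and none passed with IFN-γ (24.1% higher and 19.5% lower among all genes). The catalytic subunit Atp6v1a (0.46 ± 0.15), the nucleotide-binding Atp6v1b2 (1.04 ± 0.15) and the regulatory Atp6v1h (0.66 ± 0.14) were those that rose. Atp6v1b2 and Atp6v1h also rose at 400 µM (0.56 ± 0.15 and 0.71 ± 0.14), and Atp6v1h at 200 µM (0.48 ± 0.14). Atp6v1b2 had 782, 851 and 849 CPM at 400 µM heme-albumin, 703, 827 and 732 at 200 µM, 1250.4, 1025 and 1182 under IL-4 and 594, 625 and 908 under IFN-γ, against 536, 560.1 and 583 in controls. All 12 treated libraries lay above all controls, the IFN-γ libraries 1 and 2 narrowly. With IFN-γ the difference of 0.34 ± 0.15 did not pass, nor that of 0.43 ± 0.15 at 200 µM. The stalk subunits Atp6v1c1, Atp6v1d and Atp6v1e1 passed in none, with values from -0.38 (Atp6v1c1 with IFN-γ) to 0.43 (Atp6v1c1 with IL-4). The accessory subunit Atp6ap1 fell with IFN-γ (-0.27 ± 0.09) and showed -0.19 ± 0.09, -0.14 ± 0.09 and 0.09 ± 0.09 at 400 µM, at 200 µM and with IL-4. Summed over the 5 V0 members, RNA stood at 1190.0, 1216 and 1225 CPM at 400 µM, 1263, 1394 and 1293 CPM at 200 µM, 2856, 3038 and 2896 CPM with IL-4 and 801, 944 and 1056 CPM with IFN-γ, against 1205, 1261 and 1309 CPM in controls. Of the mean V0 sums of 2930 CPM with IL-4 and 1259 CPM in controls, Atp6v0a1 alone made up 1713 and 315 CPM, which is most of their difference. The 6 V1 members summed to 2024, 2746 and 2286 CPM at 400 µM and 1859, 2190 and 2040 CPM at 200 µM. Their sums were 3020, 2749 and 3010 CPM with IL-4 and 1675, 1659 and 2252 CPM with IFN-γ, against 1835, 1845 and 1914 CPM in controls. Atp6v1a lost its call with IL-4 without any single control library or any single IL-4 library (0.0623 to 0.126). Atp6v1b2 lost its call at 400 µM without control replicate 1 (0.0524). Atp6v1b2 gained a call at 200 µM with the replicate block (0.0418), and with IFN-γ without IFN-γ replicate 1 (0.0248). Atp6v1c1 gained a call with IL-4 with the replicate block (0.0464), and with IFN-γ without IFN-γ replicate 3 (0.0349). Atp6v1d gained a call at 400 µM without 400 µM replicate 2 (0.0307). Atp6v1e1 gained a call with IL-4 with the replicate block (0.0388), and with IFN-γ without IFN-γ replicate 3 (0.00924). Atp6v1h lost its call at 200 µM without any single control library or 200 µM replicate 2 or 3 (0.071 to 0.122). Atp6ap1 lost its call with IFN-γ without control replicate 2 or 3 or IFN-γ replicate 1 or with no filter or with only the 6 libraries compared (0.0576 to 0.0729).

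**Figure D3:**
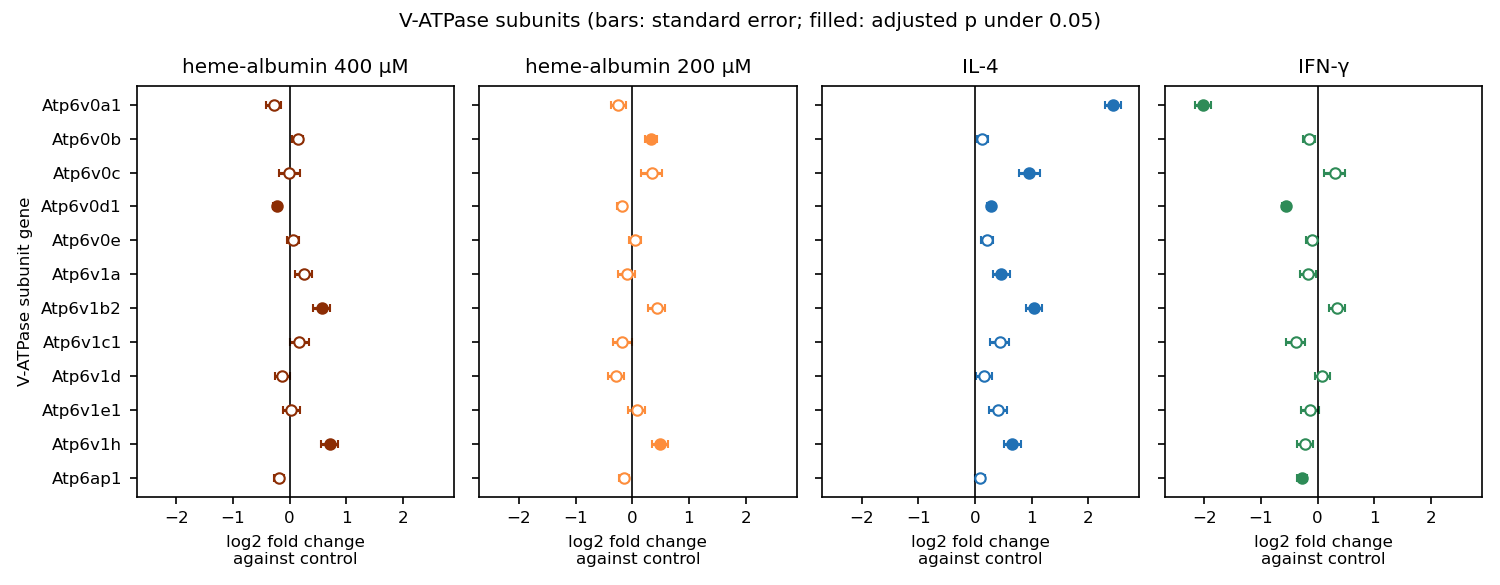
Log2 fold changes (points, with SE bars) of the 12 V-ATPase members in each treatment against control, filled where the adjusted p was under 0.05. IL-4 has 6 filled points, all to the right of 0, IFN-γ has 3, all to the left, and Atp6v0a1 lies far out in both.

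Other subunits of the pump, none of them members, were read from a list of 12, of which 7 passed the filter. Atp6v0d2, the d2 subunit known from osteoclasts, had 6.68, 38.5 and 11.6 CPM at 400 µM heme-albumin, 4.72, 21.1 and 7.32 at 200 µM, 1158, 822 and 1060.1 under IL-4 and 3.87, 8.27 and 11.4 under IFN-γ, against 19.4, 27.3 and 21.4 in controls. The IL-4 libraries lay far above all others, a 44.5-fold difference (5.48 ± 0.66, adjusted p = 4.62e-05), larger than that of any member. Of the 4 isoforms of subunit a, per kilobase of exon, Tcirg1 (a3) stood at 126 ± 23.0 CPM at 400 µM, 136 ± 33.9 at 200 µM, 151 ± 13.9 with IL-4 and 152 ± 46.0 with IFN-γ, against 86.9 ± 11.7 in controls. Atp6v0a1 on the same per-kilobase scale stood at 39.5 ± 2.47, 40.5 ± 0.735, 261 ± 6.82 and 11.8 ± 2.91 in those groups, against 48.1 ± 2.43 in controls. Subunit a1 was above a3 with IL-4 and below it in each other group, and in none did their ranges of mean ± SD meet. Atp6v0a2 was at 9.81 ± 0.802 with IL-4 and 14.8 ± 0.890 with IFN-γ, against 8.03 ± 0.292 in controls, and Atp6v0a4 had at most 2 counts in any group. Tcirg1 rose with IL-4 (0.80 ± 0.23) and IFN-γ (0.81 ± 0.23), and Atp6v0a2 rose with IFN-γ (0.88 ± 0.10), IL-4 (0.29 ± 0.10), 400 µM (0.61 ± 0.10) and 200 µM heme-albumin (0.47 ± 0.10). Tcirg1 lost its call with IL-4 without control replicate 1 or IL-4 replicate 2 or 3 (0.0537 to 0.0895), and with IFN-γ without control replicate 1 or IFN-γ replicate 2 (0.0551 to 0.0552). Atp6v0a2 lost its call with IL-4 without any single control library or IL-4 replicate 1 or 3 or by DESeq2 or with DESeq2's size factors or with upper-quartile factors or with no filter or with the 5 CPM filter or with the replicate block (0.0534 to 0.178). Osteoclast markers, of which 5 of 6 were detected and Calcr was at 0 in each library, summed to 86.6 to 136 CPM with IL-4 and 95.0 to 300.5 with IFN-γ, against 58.1 to 75.0 in controls. The part of such cells in these values was not tested.

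Among the MiT/TFE regulators, Tfeb and Tfec transcripts were highest with IL-4. Tfeb (ENSMUSG00000023990, chromosome 17, 47737030 to 47792419) had 31.8, 12.7 and 22.6 CPM at 400 µM heme-albumin, 30.5, 37.7 and 28.9 at 200 µM, 53.3, 65.1 and 54.6 under IL-4 and 23.1, 38.9 and 48.4 under IFN-γ, against 13.7, 14.9 and 16.4 in controls. The IL-4 libraries all lay above the other groups, and 400 µM replicate 2 lay below the controls while the other 2 of its group lay above. Tfeb rose with IL-4 (1.94 ± 0.29, adjusted p = 0.000258), with IFN-γ (1.29 ± 0.29) and at 200 µM (1.11 ± 0.29), with 0.58 ± 0.29 at 400 µM (adjusted p = 0.166). Tfec, the member of the family found mainly in myeloid cells, had 54.9, 63.5 and 57.8 CPM at 400 µM heme-albumin, 56.8, 49.8 and 55.3 at 200 µM, 79.2, 100.0 and 89.8 under IL-4 and 42.0, 23.5 and 25.1 under IFN-γ, against 41.6, 29.9 and 38.9 in controls. The IL-4 libraries lay above all others, the heme-albumin libraries above the controls, and the IFN-γ libraries overlapped the controls. Tfec rose with IL-4 (1.29 ± 0.19) and at 400 µM (0.68 ± 0.19), while its differences of 0.55 ± 0.19 at 200 µM and -0.29 ± 0.19 with IFN-γ did not pass. Mitf, of osteoclasts and pigment cells, had 79.2, 105 and 94.2 CPM at 400 µM heme-albumin, 81.8, 84.6 and 86.4 at 200 µM, 97.6, 98.7 and 111 under IL-4 and 73.2, 70.3 and 134 under IFN-γ, against 64.9, 68.1 and 68.9 in controls. All treated libraries lay above the controls, and IFN-γ replicate 3 was far above the other 2 of its group. Mitf rose with IL-4 (0.61 ± 0.19), with 0.46 ± 0.20, 0.33 ± 0.20 and 0.46 ± 0.19 at 400 µM, at 200 µM and with IFN-γ. Tfe3 had 133, 114 and 131 CPM at 400 µM heme-albumin, 146, 145 and 148 at 200 µM, 126, 143 and 147 under IL-4 and 143, 144 and 187 under IFN-γ, against 139, 140.5 and 159 in controls. Each treated group overlapped the controls except 400 µM, which lay below them. Tfe3 passed in none, with values from -0.21 at 400 µM to 0.11 with IFN-γ. Per kilobase of exon in controls the order was Tfe3 (15.8 ± 1.21 CPM), Mitf (10.9 ± 0.338), Tfec (6.58 ± 1.09) and Tfeb (2.65 ± 0.243, SD, n = 3 each). Tfeb lost its call at 200 µM without control replicate 1 or 200 µM replicate 2 (0.0622 to 0.063). Tfeb gained a call at 400 µM without 400 µM replicate 2 (0.0355). Tfec lost its call at 400 µM without control replicate 2 or 3 or 400 µM replicate 2 (0.0525 to 0.104). Tfec gained a call with IFN-γ without IFN-γ replicate 1 (0.00459). Mitf lost its call with IL-4 without any single control library or any single IL-4 library (0.0617 to 0.122). Mitf gained a call with IFN-γ without IFN-γ replicate 1 or 2 (0.0223 to 0.0258).

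**Figure D4:**
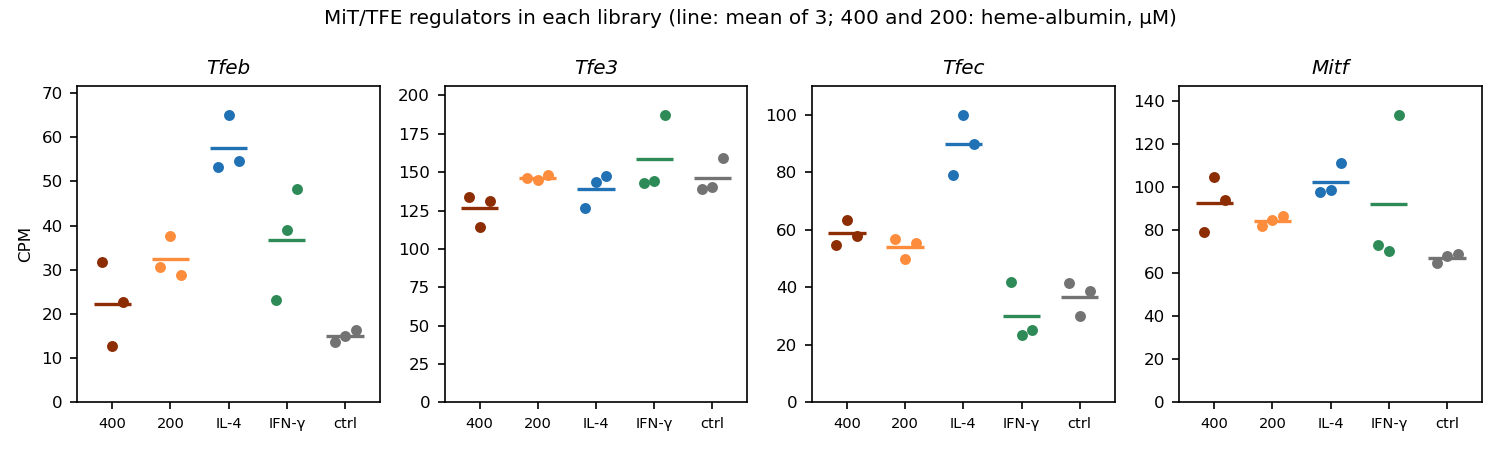
CPM of the 4 MiT/TFE regulators in each library, from 400 µM heme-albumin on the left to control (ctrl) on the right; points are libraries and lines are means of 3. Tfeb and Tfec are highest in the IL-4 libraries, and Tfe3 stays between 114 and 187 CPM in all 15 libraries.

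The higher dose of heme-albumin moved no member past the threshold relative to the lower. At 400 µM against 200 µM, 0 members rose and 0 fell, where 0% and 0% of all tested genes did. Without adjustment 1796 genes, 5 of them members, had a p under 0.05, and DESeq2 called 13 genes and no member. The 5 members were Man2b1 (-0.37 ± 0.11, unadjusted p = 0.00701), Gaa (-0.48 ± 0.16, 0.00856), Atp6v1a (0.34 ± 0.15, 0.0372), Ctsc (-0.42 ± 0.19, 0.0430) and Gla (0.49 ± 0.22, 0.0444), and the smallest adjusted p was 0.292. Differences over the 38 ran from -0.53 ± 0.29 (Tfeb) to 0.49 ± 0.22 (Gla). The doses are not shown to act alike.

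Set directly against IL-4, heme-albumin at 400 µM left more members lower than higher. 1 member was higher and 19 were lower at 400 µM, where 20.5% and 19.7% of all genes were. Ctsh was the higher one (1.35 ± 0.19), and Atp6v0a1 (-2.72 ± 0.14), Psap (-1.42 ± 0.20) and Ctss (-1.39 ± 0.38) were the most lowered. Of the V-ATPase members 5 of 12 were lower and none higher. Without 400 µM replicate 1, 2 members were called higher. Of all genes 2487 were then higher, against 2431. Against IFN-γ, 12 members were higher and 11 lower at 400 µM (20.6% and 22.3% of all genes). The most raised were Atp6v0a1 (1.74 ± 0.14), Ctsl (1.63 ± 0.15) and Tfec (0.96 ± 0.19), and the most lowered Ctsc (-4.19 ± 0.21), Ctsh (-2.39 ± 0.19) and Ctss (-2.05 ± 0.39). Here 7 members were higher without 400 µM 2 or IFN-γ 1 and 6 without IFN-γ 2. Of all genes 2271, 2716 and 2178 were then higher, against 2448. Upper-quartile factors moved the median of all genes by 0.122, which gave 3176 genes higher and 2006 lower, against 2448 and 2649, and 13 members higher and 8 lower. Without both libraries that stood furthest apart, the members' counts were 2 higher and 23 lower against IL-4 and 15 higher and 12 lower against IFN-γ. Over all 11998 genes tested there the counts were 2576 and 2272 against IL-4 and 2421 and 2329 against IFN-γ.

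Set against IFN-γ, IL-4 gave higher levels of nearly all V-ATPase members and lower levels of a pair of cathepsins and Npc2. 21 were higher with IL-4 than with IFN-γ and 3 lower, where 24.3% and 26.3% of all genes were, and the median over members was 0.41, against -0.00607 over all genes. All 5 V0 members, 5 of 6 V1 members and Atp6ap1 were higher with IL-4, from 0.282 (Atp6v0b) to 4.47 (Atp6v0a1), and Atp6v1d did not pass (0.08 ± 0.13). Of the 7 tested pump subunits outside the members, 3 were higher with IL-4 and 1 lower, with a median of -0.0069. Atp6v0a1 (4.47 ± 0.16), Ctsl (1.63 ± 0.15) and Tfec (1.57 ± 0.19) were the most raised members. Ctsc (-4.33 ± 0.22), Ctsh (-3.74 ± 0.21) and Npc2 (-0.91 ± 0.18) were the 3 members that were lower. Psap, high with both, differed by -0.04 ± 0.19, and Ctss by -0.67 ± 0.38, which did not pass. Without both libraries that stood furthest apart 24 members were higher and 4 lower, and 3076 and 3257 of 11998 genes. With only these 6 libraries 14 members were higher and 3 lower, and 2243 and 2543 of 11609 genes. Upper-quartile factors moved the median of all genes by 0.0876, which gave 3437 genes higher and 2645 lower, against 2892 and 3122, and 23 members higher and 3 lower. Atp6v0b lost its call in IL-4 against IFN-γ without IL-4 replicate 2 or 3 or IFN-γ replicate 1 or 2 or with no filter or with only the 6 libraries compared (0.0521 to 0.137). Atp6v0c lost its call in IL-4 against IFN-γ with only the 6 libraries compared (0.0635). Atp6v0e lost its call in IL-4 against IFN-γ without IL-4 replicate 3 or IFN-γ replicate 1 or 2 or with only the 6 libraries compared (0.0514 to 0.0774). Atp6v1e1 lost its call in IL-4 against IFN-γ with only the 6 libraries compared (0.0709).

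**Figure D5:**
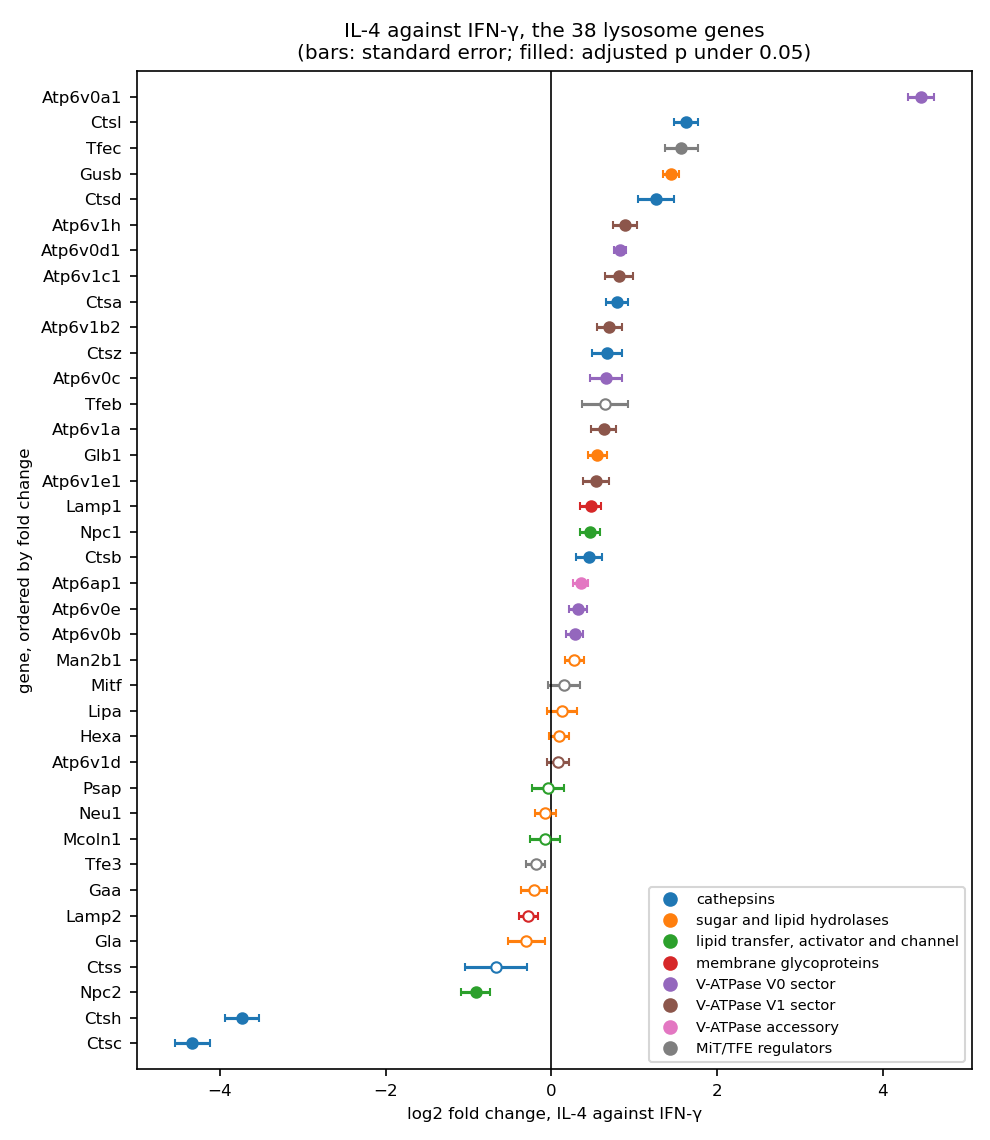
Log2 fold changes of the 38 members, IL-4 against IFN-γ (x axis, points with SE bars), sorted by size and coloured by role, filled where the adjusted p was under 0.05. 21 filled points lie to the right of 0, among them 11 of the 12 V-ATPase members, and 3 to the left.

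The other lysosome genes were read from lists of known genes, chosen after earlier results of these data had been seen. Of 30 further lysosomal enzymes, 2 rose and 13 fell at 400 µM, 1 rose and 11 fell at 200 µM, 13 rose and 2 fell with IL-4 and 8 rose and 6 fell with IFN-γ, with medians of -0.395, -0.277, 0.330 and 0.118. Of all tested genes 14.7% rose and 10.8% fell at 400 µM, and 14.0% and 9.48% at 200 µM. With IL-4 these shares were 14.9% and 12.0%, and with IFN-γ 24.1% and 19.5%. The IFN-γ counts of the enzymes lie near those shares. The glycoprotein Creg1 rose at 400 µM (1.90 ± 0.28) and 200 µM (1.69 ± 0.28), while the protease legumain, Lgmn, fell (-1.38 ± 0.22 at 400 µM). Arsb, arylsulfatase B, fell at 200 µM (-0.97 ± 0.19) and with IFN-γ (-2.16 ± 0.20). With IL-4 the largest rises were those of tartrate-resistant acid phosphatase, Acp5 (4.08 ± 0.46), cathepsin K, Ctsk (3.67 ± 0.80), and the phospholipase D family gene Pld3 (1.53 ± 0.27). Ctsk had 3.72, 16.4 and 4.09 CPM at 400 µM heme-albumin, 2.93, 14.2 and 3.50 at 200 µM, 72.5, 83.6 and 44.6 under IL-4 and 0.996, 2.05 and 7.78 under IFN-γ, against 3.07, 9.38 and 2.79 in controls, and its replicates spread widely in each group. With IFN-γ Acp5 (2.04 ± 0.46) and Ppt1, a palmitoyl-protein thioesterase (1.47 ± 0.15), rose. Without any 1 library the falls among these enzymes numbered 11 to 13 at 400 µM and 7 to 11 at 200 µM and the rises with IL-4 10 to 12, and with IFN-γ 6 to 11 rose and 5 to 6 fell. The 7 falls at 200 µM were those without 200 µM replicate 2. Over all genes, falls in these fits numbered 902 to 1233 at 400 µM and 650 to 934 at 200 µM. Rises with IL-4 numbered 1179 to 1358, and with IFN-γ 2232 to 3074 genes rose and 1792 to 2527 fell.

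Of 19 tested genes of other lysosomal membrane proteins, 3 rose and 2 fell at 400 µM, 3 rose and 1 fell at 200 µM, 4 rose and 0 fell with IL-4 and 7 rose and 3 fell with IFN-γ. In the same order, rises made up 14.7%, 14.0%, 14.9% and 24.1% of all tested genes. Falls made up 10.8%, 9.48%, 12.0% and 19.5%. These shares are also the background for the sorting genes below. Slc48a1, which carries heme out of the lysosome, had 1207, 1467 and 1368 CPM at 400 µM heme-albumin, 1374, 1493 and 1455 at 200 µM, 551, 465 and 621 under IL-4 and 482, 469.8 and 866 under IFN-γ, against 397, 329.9 and 463 in controls. All heme-albumin libraries lay above all others. It rose at 400 µM (1.77 ± 0.22), 200 µM (1.86 ± 0.22) and with IFN-γ (0.61 ± 0.21). The metal transporter Slc11a1 rose at 400 µM (1.23 ± 0.19), 200 µM (1.50 ± 0.19) and with IFN-γ (1.53 ± 0.19), and the tetraspanin Cd63 at 400 µM (0.52 ± 0.14), 200 µM (0.52 ± 0.14) and with IL-4 (0.71 ± 0.14). The nucleoside transporter Slc29a3 (1.40 ± 0.14) and the channel Tpcn2 (1.34 ± 0.14) led with IL-4, and the chloride transporter Clcn7 (1.64 ± 0.22) rose and the channel Tpcn1 fell (-1.20 ± 0.14) with IFN-γ. Among 11 genes that sort enzymes to the lysosome, 1 rose and 3 fell at 400 µM, 3 rose and 2 fell at 200 µM, 2 rose and 1 fell with IL-4 and 2 rose and 4 fell with IFN-γ. The sorting receptor sortilin, Sort1, had 316, 354 and 329 CPM at 400 µM heme-albumin, 241, 329 and 275 at 200 µM, 111, 60.4 and 98.9 under IL-4 and 40.7, 17.3 and 83.1 under IFN-γ, against 65.9, 52.7 and 69.5 in controls. All heme-albumin libraries lay above all others, and Sort1 rose at 400 µM (2.41 ± 0.41) and 200 µM (2.17 ± 0.40). Slc48a1 lost its call with IFN-γ without control replicate 1 or 2 or IFN-γ replicate 3 or with upper-quartile factors or without both libraries that stood furthest apart (0.0678 to 0.184). Cd63 lost its call at 400 µM without control replicate 1 or 400 µM replicate 2 (0.0617 to 0.0688), and at 200 µM without control replicate 1 or 3 or 200 µM replicate 2 (0.0584 to 0.0887). Without IFN-γ replicate 3 the difference of Slc48a1 with IFN-γ was 0.26.

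Of 4 tested cathepsin inhibitors none passed with heme-albumin, 2 rose with IL-4 (cystatin F, Cst7, 1.39 ± 0.33, and cystatin C, Cst3, 0.78 ± 0.19), and with IFN-γ Cst3 rose (0.66 ± 0.19) and Serpinb6a fell (-0.72 ± 0.12). Of 16 genes listed for mTORC1 and the control of TFEB, 2 rose and 3 fell at 400 µM, 2 rose and 5 fell at 200 µM, 2 rose and 2 fell with IL-4 and 3 rose and 3 fell with IFN-γ. In the same order, rises made up 14.7%, 14.0%, 14.9% and 24.1% of all tested genes. Falls made up 10.8%, 9.48%, 12.0% and 19.5%. These shares are also the background for the inhibitors above and the autophagy genes below. Flcn, folliculin, which acts on the Rag GTPases, fell at 400 µM (-0.56 ± 0.14) and rose with IL-4 (0.49 ± 0.14). The Rag GTPase gene Rragd fell at 200 µM (-1.86 ± 0.55) and Rragb fell with IL-4 (-1.48 ± 0.40). The kinase gene Map4k3 rose with IFN-γ (1.19 ± 0.24). Of 19 autophagy genes 4 rose and 2 fell at 400 µM, 4 rose and 1 fell at 200 µM, 3 rose and 0 fell with IL-4 and 8 rose and 2 fell with IFN-γ. The cargo receptor Sqstm1 rose at 400 µM (2.05 ± 0.26), 200 µM (1.92 ± 0.26) and with IFN-γ (1.15 ± 0.26), Gabarapl1 at 400 µM (1.50 ± 0.21) and 200 µM (1.36 ± 0.21), and Optn fell at 400 µM (-1.07 ± 0.30) and 200 µM (-1.53 ± 0.30). With IL-4 the glycoprotein gene Gpnmb rose (1.37 ± 0.31). Cst3 lost its call with IL-4 without control replicate 1 (0.0514), and with IFN-γ without control replicate 1 or 3 or IFN-γ replicate 2 or 3 or without both libraries that stood furthest apart (0.0513 to 0.0654). Flcn lost its call with IL-4 without control replicate 1 or 2 or IL-4 replicate 2 (0.073 to 0.0784). Rragd lost its call at 200 µM without any single control library or 200 µM replicate 1 or 3 (0.0541 to 0.0988). Rragb lost its call with IL-4 without control replicate 1 or IL-4 replicate 1 (0.0621 to 0.0759). Optn lost its call at 400 µM without control replicate 3 or 400 µM replicate 1 (0.0511 to 0.0647). With IFN-γ 4 autophagy genes rose without control replicate 1, 5 without control replicate 3 and 3 without IFN-γ replicate 3. Of all genes 2232, 2362 and 2494 then rose, against 2866.

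Per kilobase of exon the most abundant members in controls were Ctsd (4274 ± 607 CPM), Ctsb (2594 ± 128), Psap (1836 ± 176) and Ctss (1136 ± 409, SD, n = 3 each). Psap headed the order with IL-4 (7077 ± 280.4, with Ctsd next at 5966 ± 830.3) and with IFN-γ (7277 ± 1768, with Ctss next at 4497 ± 2380.4). At 400 and 200 µM heme-albumin Ctsd led (3933 ± 868 and 3517 ± 381), with Psap next (2644 ± 266 and 3014 ± 534). Ctsh and Ctsc stood at 228 ± 73.0 and 639 ± 43.5 with IFN-γ and at 12.9 ± 0.267 and 74.6 ± 5.81 in controls. Tfeb (2.65 ± 0.243), Tfec (6.58 ± 1.09) and Mcoln1 (8.08 ± 0.767) were the least abundant in controls.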

How the data were processed

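The deposited file gives raw counts of reads per Ensembl gene, 1 column per library. STAR 2.7.0e, SAMtools 1.9, featureCounts and GRCm38.p5 are named, with no role or order, per the submitters' processing notes, and a stranded TruSeq kit in the labels' protocols. The strand setting and the annotation used for counting are not given in the sources used here. Of 25700 identifiers 25664 matched GENCODE M21. The members and the lists of other genes and of cell type markers were chosen with earlier results of these data known. Groups came from the titles.

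Counts were tested in R 4.3.3 with edgeR 4.0.16 (filterByExpr, TMM factors, quasi-likelihood F-test, all 15 libraries in 1 fit with a mean per group, Benjamini-Hochberg adjustment over 11883 genes in each of 8 comparisons), at an adjusted p under 0.05. SE is the absolute log2 fold change divided by the square root of F. Levels per kilobase use the union of a gene's GENCODE exons. Values are given in each library for the 4 MiT/TFE genes, for the 3 largest called rises and falls among members in each comparison with control and for a few more shown for their pattern (Atp6v0d1, Atp6v1b2, Atp6v0d2, Ctsk, Slc48a1 and Sort1, chosen after their values were seen). From each other list at most the 3 largest called changes per comparison are named.

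The alternatives tried were DESeq2 1.42.0, scaling by DESeq2's size factors or by the upper quartile, testing without a filter, requiring 5 CPM in 3 libraries, fitting only the 6 libraries compared, a replicate block, each library left out in turn, and both libraries that stood furthest apart left out. Where a group is left with fewer libraries, they are assumed to vary like the other groups. The replicate numbers pair the samples: per the file headers, libraries of the same number carry the same date in all 5 groups, though what was done on it is not given. Deviations from group means correlated with a median of 0.193 over 30 same-numbered pairs of libraries (-0.206 to 0.512, 21 above 0.1) and -0.0992 over 60 other pairs, and for 14 of 15 libraries the best match was their own number. Tested on simulated data for 400 µM against control with 11733 genes, the procedure recovered 11 of 50 genes set to change 1.5-fold, 31 of 50 at 2-fold, 48 of 50 at 4-fold and 47 of 50 at 8-fold, with 6 false calls among 143. In the real comparison 3023 genes were called. Since the adjustment depends on how many genes change, these shares do not give the recovery in the real data.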

Additional observations from a re-analysis of the deposited data

How the results depend on the processing

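The counts of members called depended on the samples in the fit and on single libraries. With only the 6 libraries compared, 11 members rose and 10 fell at 200 µM heme-albumin against control, and 5 were higher and 7 lower at 400 µM against IFN-γ. In these fits 2304 genes rose and 2152 fell of 11308 at 200 µM, and 1268 were higher and 1473 lower of 11491 against IFN-γ. At 400 µM against IL-4, 2 members were higher with DESeq2, with upper-quartile factors and with the filter of 5 CPM in 3 libraries. Over all genes 2615, 2645 and 2182 were higher there, against 2431. Over the fits without 1 library or without both that stood furthest apart, the members called ranged from 5 to 11 for falls at 400 µM against control, from 3 to 11 for rises and 3 to 10 for falls at 200 µM, from 12 to 26 for rises with IL-4, and from 7 to 14 for rises and 5 to 10 for falls with IFN-γ. In the direct comparisons they ranged from 1 to 2 for members higher at 400 µM than with IL-4 and from 6 to 15 for members higher at 400 µM than with IFN-γ. Over all genes the falls at 400 µM numbered 902 to 1417, and at 200 µM rises 1003 to 2472 and falls 650 to 1958. Rises with IL-4 numbered 1179 to 2398, and with IFN-γ rises 2232 to 3074 and falls 1792 to 2527. Genes higher at 400 µM numbered 2018 to 2576 against IL-4 and 2032 to 2716 against IFN-γ. With IL-4 against control, 23 members rose with the replicate block, as did 1901 of all 11883 genes. Beside the calls given with each gene, the block changed no other member's call against control. The cause of these shifts was not tested, except that fits of fewer libraries estimate the spread from fewer samples.

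No member that passed a test changed direction in any alternative; those that did had not passed. At 400 µM, Atp6v0c turned to 0.00831 with upper-quartile factors, 0.0107 with the 5 CPM filter and 0.0076 with the replicate block. At 200 µM, Tfe3 turned to -0.0277 with DESeq2, -0.0284 with its size factors, -0.0114 with upper-quartile factors and -0.0141 with only the 6 libraries compared. With IFN-γ, upper-quartile factors turned Atp6v1d to -0.032 and Tfe3 to -0.000263. Without 1 library or both, the log2 fold change at 400 µM ranged from -0.0633 to 0.0867 for Atp6v0c, -0.056 to 0.51 for Gla, -0.0125 to 0.12 for Atp6v0e, -0.0707 to 0.31 for Atp6v1c1, -0.0353 to 0.12 for Atp6v1e1, -0.49 to 0.26 for Ctss, -0.28 to 0.0346 for Ctsd and -0.33 to 0.026 for Atp6v1d. At 200 µM it ranged from -0.0345 to 0.10 for Atp6v0e, -0.0544 to 0.0434 for Tfe3, -0.47 to 0.0604 for Ctss and -0.14 to 0.0613 for Mcoln1. With IL-4 it ranged from -0.12 to 0.022 for Hexa and -0.081 to 0.00703 for Lamp2. With IFN-γ it ranged from -0.16 to 0.0547 for Glb1, -0.036 to 0.29 for Lipa, -0.0263 to 0.18 for Tfe3 and -0.13 to 0.0359 for Npc1. Each member had at least 106 counts in each library, the lowest being Tfeb.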
